A study of Mus musculus with 12 samples.

Results

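The 10 genes described here encode histone demethylases of the JmjC family (Kdm6b, Kdm6a, Kdm5a, Kdm5b, Kdm5c, Kdm4a, Kdm4b, Kdm2a, Kdm2b and Kdm3a) and are 10 of 21887 protein-coding genes on mouse chromosomes 1 to 19, X and Y. They were chosen by name because Kdm6b carried a MYC peak in cells given RANKL together with I-BET and in no other MYC list, so that pattern is a description of Kdm6b and supports nothing. Binding of MYC and MAX was mapped by ChIP-seq, which sequences the DNA bound by an immunoprecipitated protein, in RAW264.7, a mouse macrophage line that forms osteoclasts when given the cytokine RANKL. The labels call the cells monocyte-derived, with bone marrow as the source. Cells were given RANKL (50 ng/ml) plus I-BET (500 nM), I-BET (500 nM) alone or RANKL (50 ng/ml) alone for 4 h, or were left untreated. I-BET inhibits the bromodomains of the BET proteins, which bind acetylated histones. Each antibody and treatment has 1 library and 1 peak list, so no difference between treatments has a replicate check, and none was tested. A peak was given to a gene when it shared at least 1 bp with the gene's extent or the 10 kb on either side (mm10 peaks, GRCm38.p6 gene extents).

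JmjC enzymes use iron and alpha-ketoglutarate to take methyl groups off lysines of histones. KDM6 enzymes remove H3K27 methylation, the mark of Polycomb repression, KDM5 enzymes remove H3K4 methylation, the mark of promoters, and the KDM4, KDM3 and KDM2 enzymes act on H3K9 or H3K36. Kdm6b (JMJD3) is induced in mouse macrophages by inflammatory stimuli. MYC binds DNA as a pair with MAX, preferably at the E-box CACGTG, while MAX also pairs with itself and with MYC's antagonists.

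MAX peaks lay at most of the demethylase genes in every treatment, and at all of them with I-BET alone. With RANKL plus I-BET, 6 of the 10 genes had a MAX peak, against 30.0% of all genes. I-BET alone gave 10 of 10, with 65.0% of all genes. RANKL alone gave 9 of 10, with 42.3% of all genes, and untreated cells gave 8 of 10, with 37.4% of all genes. Kdm6b, Kdm5a, Kdm4a, Kdm2a, Kdm2b and Kdm3a had MAX in all 4 lists, as did 5838 genes (26.7%) overall. The MAX lists themselves held 6307 peaks with RANKL plus I-BET, 36785 with I-BET, 10889 with RANKL and 8839 in untreated cells. Summed over the demethylase genes, these lists gave 10, 43, 16 and 12 peaks.

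The demethylase genes are long, with a median extent of 75253 bp against 17169 bp over all genes, and a longer gene offers more room for a peak. Within 1 kb of an annotated start (of both gene ends for Kdm6b, Kdm5a, Kdm4b and Kdm2a, whose starts were not in the table used), MAX lay at 3 of the 10 genes with RANKL plus I-BET, against 18.9% of all genes. The same window held MAX at 10 of 10 with I-BET (50.8% of all genes), 5 of 10 with RANKL (28.2%) and 4 of 10 in untreated cells (24.0%). With each list reduced to its 6307 top-scoring peaks, the genes with MAX numbered 6 with RANKL plus I-BET, 7 with I-BET, 7 with RANKL and 6 in untreated cells, against 30.0%, 33.6%, 29.8% and 30.0% of all genes. At equal list lengths the 10 genes thus no longer stood at 10 of 10 with I-BET.

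**Figure D1:**
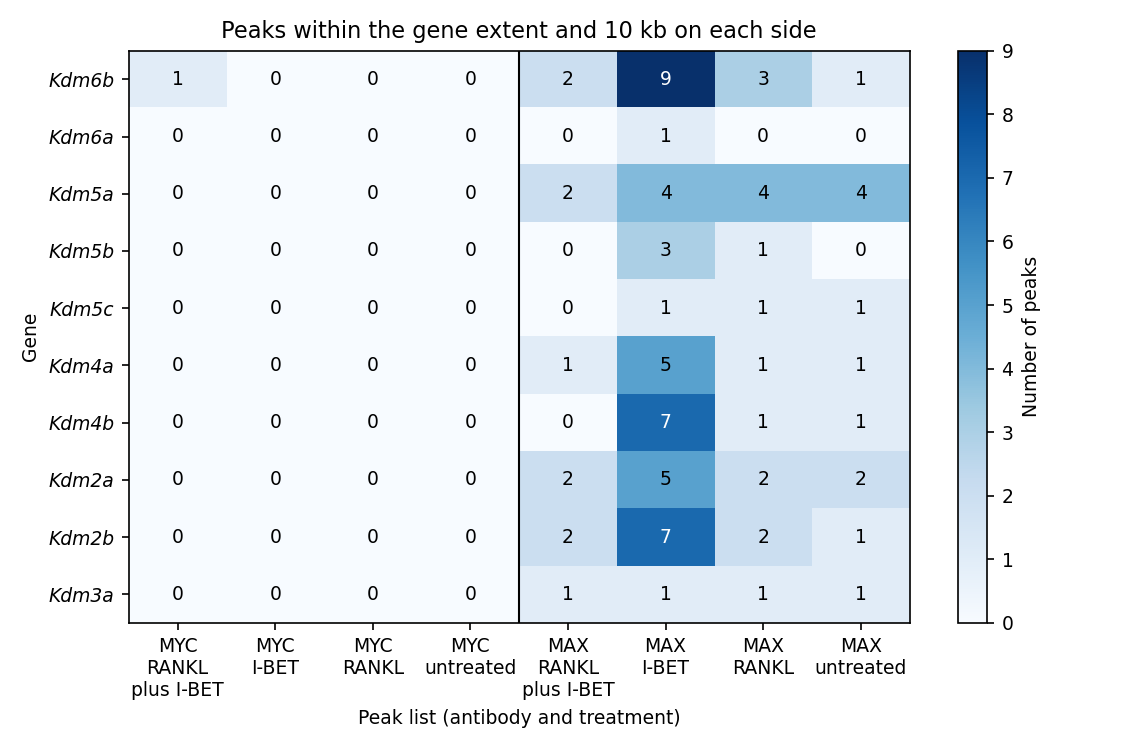
Number of MYC peaks (left 4 columns) and MAX peaks (right 4 columns) within the extent plus 10 kb of each demethylase gene (rows), 1 list per antibody and treatment, with the count printed in each cell and shown by shade. The MYC columns are at 0 but for 1 peak at Kdm6b with RANKL plus I-BET, and in the MAX columns I-BET gave the most peaks at Kdm6b, 9, while Kdm3a had 1 in every list.

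Gene by gene, the lists with RANKL plus I-BET held fewer of the demethylases than those with either agent alone. Against RANKL alone, RANKL plus I-BET lacked a MAX peak at 3 genes, Kdm5b, Kdm5c and Kdm4b (13.6% of all genes lost MAX in this comparison), and added one at 0 (1.35% of all genes gained it). Against I-BET alone, it lacked MAX at 4 genes, the same 3 and Kdm6a (35.0% of all genes), and added it at 0 (0.0%). I-BET against untreated added MAX at 2 genes, Kdm6a and Kdm5b (27.7% of all genes), and lost it at 0 (0.0959%). RANKL against untreated added MAX at 1 gene, Kdm5b (7.99%), and lost it at 0 (3.07%). These gains had little room: every demethylase had MAX with I-BET, so none could be added against it. Only Kdm6a lacked MAX with RANKL, and only Kdm6a and Kdm5b lacked it in untreated cells. The ratio of peak numbers at the 10 genes was 0.625 for RANKL plus I-BET over RANKL, with 0.579 for the whole lists. It was 0.233 for RANKL plus I-BET over I-BET, with 0.171 for the whole lists. The ratio was 3.58 for I-BET over untreated, with 4.16 for the whole lists, and 1.33 for RANKL over untreated, with 1.23 for the whole lists. Over the full lists the genes went the same way as the lists in each comparison. Among the higher-scoring 50% of each list, RANKL gave 7 peaks at 4 of the genes, with 26.9% of all genes. Untreated cells gave 8 peaks at 6 of the genes there, with 22.8% of all genes. This last direction thus turned at the 10 genes but not over all genes. RANKL plus I-BET gave 4 genes there as well, a difference of 0 from RANKL, with 17.6% of all genes.

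Promoter sequence was available for 6 of the 10 genes, and 4 upstream stretches are shown because their MAX lists differ: Kdm3a had MAX over it in all 4 lists, Kdm2b in 3 with no untreated peak, Kdm5c in 3 with no RANKL plus I-BET peak, and Kdm6a with I-BET only. Each is the 250 bases before a start, 5′ to 3′ on the gene's strand (RefSeq, GRCm38.p6), and capitals mark every CANNTG, the general E-box form. They lie at chr6:71632918-71633167 (minus strand), chr5:122900368-122900617 (minus strand), chrX:152232977-152233226 (plus strand) and chrX:18162325-18162574 (plus strand).
Kdm3a: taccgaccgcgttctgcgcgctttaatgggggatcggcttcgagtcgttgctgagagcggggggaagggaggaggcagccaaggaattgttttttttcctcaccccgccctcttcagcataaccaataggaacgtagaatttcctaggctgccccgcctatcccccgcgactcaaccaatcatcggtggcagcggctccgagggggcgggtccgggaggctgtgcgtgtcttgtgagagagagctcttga
Kdm2b: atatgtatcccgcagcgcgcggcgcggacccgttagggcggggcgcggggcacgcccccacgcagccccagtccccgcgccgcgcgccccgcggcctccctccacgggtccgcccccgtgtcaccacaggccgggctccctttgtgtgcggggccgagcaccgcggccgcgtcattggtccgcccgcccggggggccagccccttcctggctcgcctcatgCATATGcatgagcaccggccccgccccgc
Kdm5c: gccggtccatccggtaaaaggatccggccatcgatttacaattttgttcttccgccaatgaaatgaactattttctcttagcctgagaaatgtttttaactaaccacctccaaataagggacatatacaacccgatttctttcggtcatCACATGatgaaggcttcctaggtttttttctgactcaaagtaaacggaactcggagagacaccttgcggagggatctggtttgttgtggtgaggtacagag
Kdm6a: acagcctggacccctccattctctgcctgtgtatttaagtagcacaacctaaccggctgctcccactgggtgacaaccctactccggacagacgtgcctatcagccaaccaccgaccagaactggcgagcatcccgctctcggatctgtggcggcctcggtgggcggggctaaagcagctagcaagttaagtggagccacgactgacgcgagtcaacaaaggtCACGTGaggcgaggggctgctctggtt

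Among these 4, the sole CACGTG was in Kdm6a, 27 bases before its start, where MAX was listed with I-BET and in no other treatment. The stretches not shown with MAX in the I-BET list only, at Kdm5b, Kdm4a and the outer starts of Kdm2b, held no CANNTG. Kdm5c held CACATG 101 bases before its start and Kdm2b held CATATG 29 bases before its start. Kdm3a, with a MAX peak sharing bases with its stretch in every list, held no CANNTG in these 250 bases. Measured from its start, with negative values before it, the peak middles lay at -482 bp with RANKL plus I-BET and -223 bp with I-BET. They lay at -428 bp with RANKL and -515 bp in untreated cells, so only the I-BET middle fell in the stretch shown. The Kdm3a stretches not shown had MAX with I-BET and RANKL only, or in no list, and held no CANNTG. Over 32817 promoter stretches of the same length, searched on both strands, 6.02% held CACGTG, 12.3% held CACATG or its complement CATGTG, and 66.2% held CANNTG, which includes the others. CACGTG was in 18.9% of the 3144 stretches with MAX in all 4 lists, in 4.71% of the 4925 with MAX in the I-BET list only and in 4.15% of the 21204 with no MAX. CACGCG or its complement CGCGTG, not a CANNTG, ran the same way as CACGTG, in 26.0%, 9.81% and 2.99% of these 3 groups. CACATG or CATGTG was instead most frequent in the stretches with no MAX, in 7.47%, 6.44% and 15.3% of the 3 groups. CANNTG rose through the groups, in 54.7%, 57.5% and 72.2%. A match is a string of letters, not a measured site.

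Of the H3K27 demethylases, Kdm6b (chr11:69398508-69420367) had the single MYC peak at these 10 genes, with RANKL plus I-BET at chr11:69409479-69409550. That list held 11 MYC peaks, and 0.064% of all genes had one. No demethylase gene had a MYC peak with I-BET (136 peaks, 0.434% of all genes), with RANKL (299 peaks, 2.02%) or in untreated cells (312 peaks, 2.05%). Kdm6b was the only one of the 21887 genes that had MYC with RANKL plus I-BET but not with RANKL (0.00457%), and 1 of 12 genes that had it with RANKL plus I-BET but not with I-BET (0.0548%). This sets a list of 11 peaks against one of 299: cut to equal numbers of top peaks, 0.0503% of all genes had MYC with RANKL plus I-BET but not with RANKL, and 0.0228% did in the higher-scoring 50% or with a 25 kb flank. The Kdm6b peak was 72 bp wide and ranked 4 of 11 by the score, which is the authors' own value and serves here to rank peaks within a list. With peaks under 100 bp left out it drops out, and 0 demethylase genes had MYC. Such narrow peaks made up 2 of the 11 MYC peaks with RANKL plus I-BET, 105 of 136 with I-BET, 0 with RANKL and 0 in untreated cells. Over the 11 peaks, widths ran from 70 to 355 bp with a median of 138 bp, and 1 peak was narrower than that of Kdm6b. Of the 11, 8 were also in both MYC lists without the inhibitor, all 11 overlapped MAX in all 4 MAX lists, and 1, that of Kdm6b, was in no other MYC list. The nearest MYC peak to Kdm6b was 1235463 bp away with I-BET, 250945 bp with RANKL and 501351 bp in untreated cells. As no demethylase had MYC in those 3 lists, none could lose a MYC peak in any comparison. A MYC peak was gained at 0 demethylase genes with I-BET against untreated cells (0.265% of all genes) and at 0 with RANKL against untreated cells (1.01%).

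The MYC position in Kdm6b lay inside a MAX peak in every treatment. This MAX peak was 447 bp wide with RANKL plus I-BET (rank 187 of 6307), 4026 bp with I-BET (rank 726 of 36785), 773 bp with RANKL (rank 318 of 10889) and 461 bp in untreated cells (rank 331 of 8839). It was thus among the higher-scoring peaks of all 4 lists, within the top 2.96%, 1.97%, 2.92% and 3.74%, though lists of different length make these ranks no measure of change. With I-BET it was the 11th widest of the list's 36785 peaks and 8.73 times the untreated width. Of 8615 untreated MAX peaks matched to an I-BET peak, 34 (0.395%) had a ratio at least as large. Among MAX peaks ranked at or above it, 4.28% overlapped MYC with RANKL plus I-BET, 1.79% with I-BET, 34.0% with RANKL and 37.5% in untreated cells. Each share counts the Kdm6b peak itself. It overlapped MYC with RANKL plus I-BET only, the pattern Kdm6b was chosen for.

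**Figure D2:**
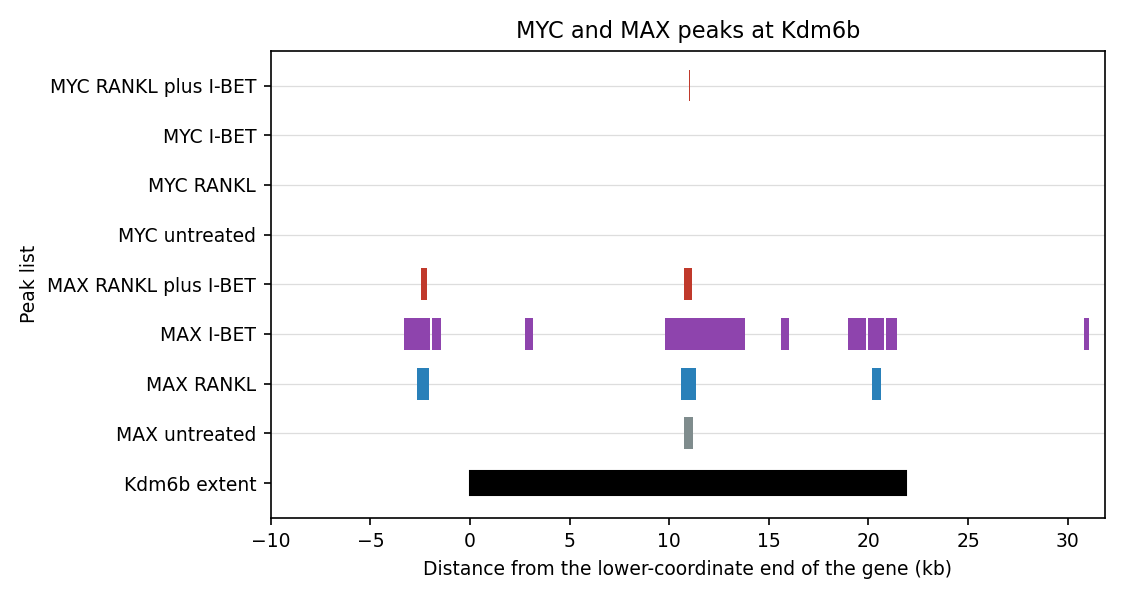
Peaks of the 4 MYC lists and the 4 MAX lists around Kdm6b, 1 row per list, drawn to scale as boxes against the distance in kb from the gene's lower-coordinate end, with the gene's extent as a black bar in the bottom row. The MYC peak, a thin line in the top row, lies over a MAX peak that is 4026 bp wide with I-BET and 447 to 773 bp wide in the other 3 lists.

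Around Kdm6b the MAX lists held 2 peaks with RANKL plus I-BET, 9 with I-BET, 3 with RANKL and 1 in untreated cells. A second peak in the gene was listed with I-BET (786 bp, rank 927 of 36785) and with RANKL (448 bp, rank 7726 of 10889), and was absent from the RANKL plus I-BET and untreated lists. A peak outside the gene, within 1 kb of Cyb5d1, Naa38 and Tmem88, was 338 bp wide with RANKL plus I-BET, 1286 bp with I-BET and 606 bp with RANKL, and was not listed in untreated cells.

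Kdm6a (UTX, chrX:18160862-18279936), the X-linked H3K27 demethylase of the KMT2C and KMT2D complexes, had a MAX peak with I-BET only. It was 847 bp wide, spanned the start at position 18162575 and ranked 6951 of 36785 (top 18.9%). Another 4154 genes had the same presence and absence over the 8 lists. For Kdm6b the number of such genes was 0, for Kdm5b 1291, for Kdm5c and Kdm4b 1640, and for the 5 genes with MAX in all 4 lists and no MYC 5170.

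The 3 H3K4 demethylases had MAX in 4, 2 and 3 of the 4 lists. Kdm5a (chr6:120364099-120444574) had 2 MAX peaks with RANKL plus I-BET and 4 in each of the other lists. Its gene-end peak, which also lies within 1 kb of Ccdc77, was 456 bp wide with RANKL plus I-BET, 1327 bp with I-BET, 620 bp with RANKL and 967 bp in untreated cells. One further RANKL plus I-BET peak lay 10065 bp from the gene, just outside the window, while the untreated peak there lay 9975 bp from it, so part of Kdm5a's difference in counts comes from the window's edge. Kdm5b (chr1:134560178-134632878) had 0 MAX peaks with RANKL plus I-BET, 3 with I-BET, 1 with RANKL and 0 in untreated cells. Its RANKL peak lay 2892 bp outside the gene, was 349 bp wide and ranked 10185 of 10889, among the lowest scores of that list. All 4 of these peaks also lie within 1 kb of Mgat4e, and with such peaks left out Kdm5b had no MAX peak in any list. That leaves I-BET at 9 of 10 genes (51.5% of all genes) and RANKL at 8 (27.2%). Kdm5c (chrX:152233198-152279102), an X-linked H3K4 demethylase, had no MAX peak with RANKL plus I-BET and 1 at its start in each of the others. That peak was 995 bp wide with I-BET (rank 4680 of 36785), 591 bp with RANKL (rank 6229 of 10889) and 387 bp in untreated cells (rank 8686 of 8839). The untreated call was therefore within the lowest-scoring 2% of its list.

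The H3K9 and H3K36 demethylase Kdm4a (chr4:118136957-118180090) had 1 MAX peak with RANKL plus I-BET, 5 with I-BET, 1 with RANKL and 1 in untreated cells. The peak common to the 4 lists was inside the gene, 437, 1466, 321 and 514 bp wide in that order of treatments. At its annotated start MAX was listed with I-BET only, 1202 bp wide. Kdm4b (chr17:56325970-56403774) had 0, 7, 1 and 1 MAX peaks in the same order. Its gene-end peak ranked 6603 of 36785 with I-BET, 7339 of 10889 with RANKL and 8491 of 8839 in untreated cells, low in the last list as for Kdm5c.

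Kdm3a (chr6:71588970-71632990), an H3K9 demethylase, had 1 MAX peak at its start in every list and no other. The peak was 774 bp wide with RANKL plus I-BET (rank 416 of 6307), 1189 bp with I-BET (rank 878 of 36785), 1028 bp with RANKL (rank 199 of 10889) and 731 bp in untreated cells (rank 481 of 8839). None of them overlapped MYC. Among MAX peaks ranked at or above it, 2.64% overlapped MYC with RANKL plus I-BET, 1.71% with I-BET, 35.2% with RANKL and 32.0% in untreated cells.

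The KDM2 enzymes remove H3K36 methylation and carry a CXXC zinc finger that binds unmethylated CpG, and KDM2B brings a Polycomb complex with PCGF1 and BCOR to CpG islands. Kdm2a (chr19:4316144-4398721) had 2 MAX peaks with RANKL plus I-BET, 5 with I-BET, 2 with RANKL and 2 in untreated cells. Its internal peak ranked 1631 of 6307 with RANKL plus I-BET, 670 of 36785 with I-BET, 3531 of 10889 with RANKL and 2510 of 8839 in untreated cells. Kdm2b (chr5:122870664-122989270) had 2, 7, 2 and 1 MAX peaks in the same order. The peak over its inner start was 409 bp wide with RANKL plus I-BET, 1794 bp with I-BET and 386 bp with RANKL, and was not listed in untreated cells. A second, internal peak was in all 4 lists, 360, 2063, 428 and 366 bp wide, and 5.64 times the untreated width with I-BET.

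**Figure D3:**
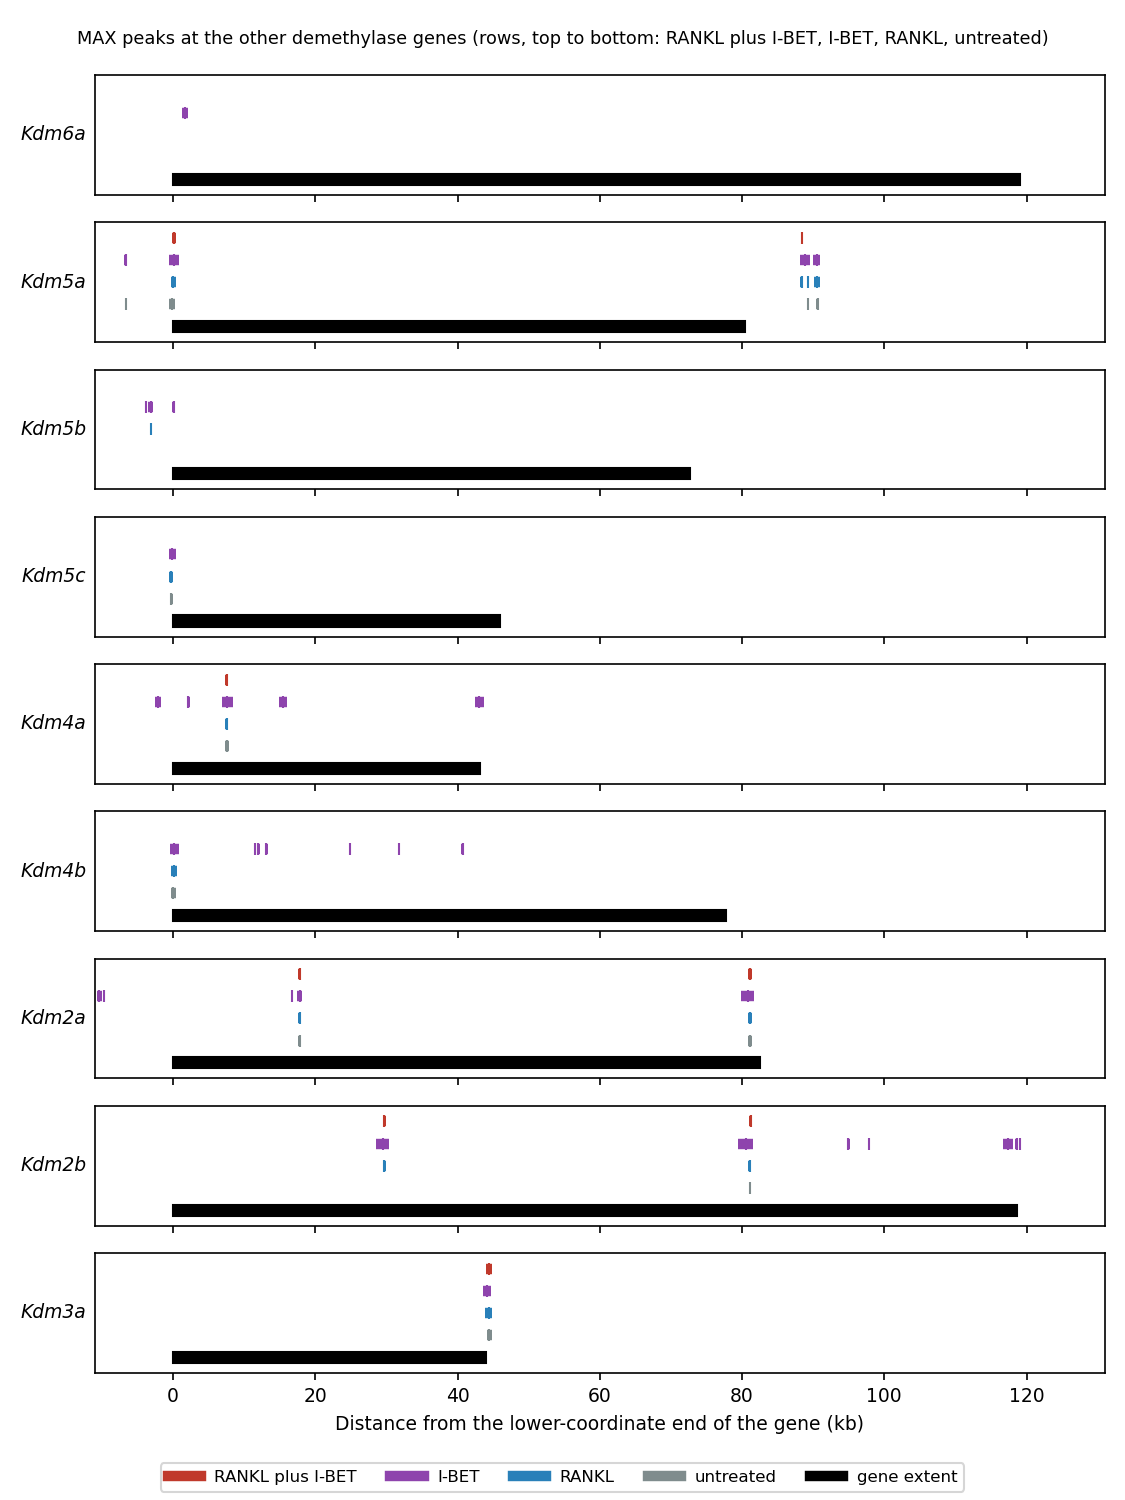
MAX peaks at the other 9 demethylase genes, 1 panel per gene and 1 row per treatment, as coloured boxes to scale with a tick at each peak's middle so that narrow peaks show, against the distance in kb from the gene's lower-coordinate end, with the gene's extent in black. The RANKL plus I-BET row is empty for Kdm6a, Kdm5b, Kdm5c and Kdm4b, and the I-BET row holds a peak for every gene.

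Where a demethylase peak was shared, it was wider with I-BET. All 12 untreated MAX peaks at these genes overlapped an I-BET peak, against 97.5% of the untreated list, and each of the 12 had a wider I-BET counterpart. The median width ratio was 2.49 (1.37 to 8.73), against 1.9 over the list. Of 8615 matched untreated peaks in the list, 76.4% had a ratio of at least 1.37, so wider I-BET peaks were common list-wide. RANKL plus I-BET peaks overlapped 11 of the 43 I-BET peaks (25.6%; list 16.4%), with a median width ratio of 0.274 and 0 wider, against 0.472 over the list. They overlapped 11 of the 16 RANKL peaks (68.8%; list 51.2%), with a median width ratio of 0.753, against 0.798. RANKL peaks overlapped 11 of the 12 untreated peaks (91.7%; list 82.0%), with a median width ratio of 1.17, against 1.13. Depth was not in the lists, and its part in the widths was not tested.

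**Figure D4:**
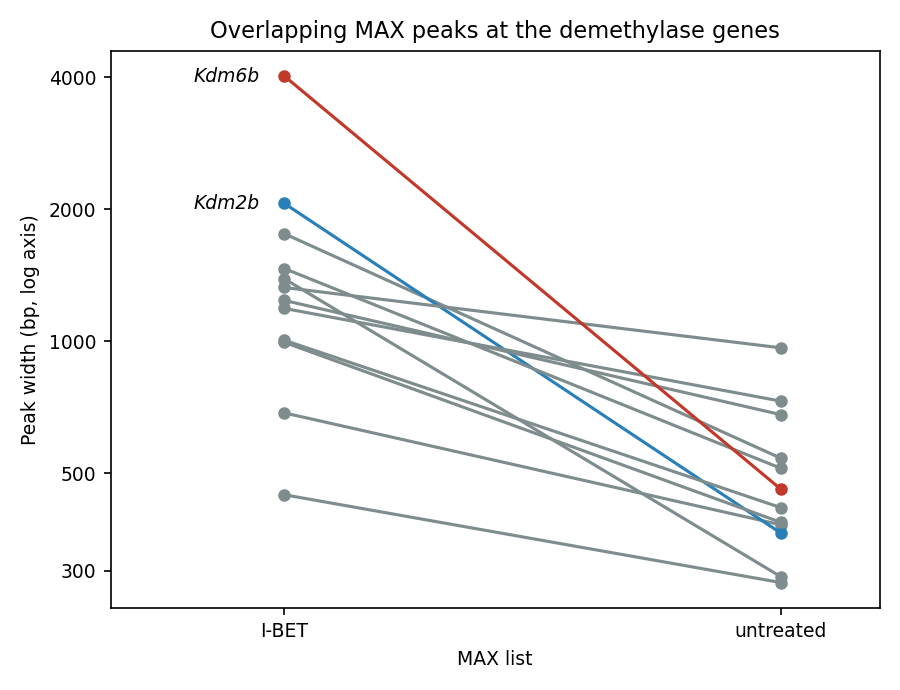
Width (bp, log axis) of the 12 untreated MAX peaks at the demethylase genes and of the I-BET peaks that overlap them, each pair joined by a line, with the Kdm6b and Kdm2b pairs coloured. Every line is higher at I-BET, and the Kdm6b pair is the steepest, 4026 bp in the I-BET list against 461 bp in the untreated list.

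**Figure D5:**
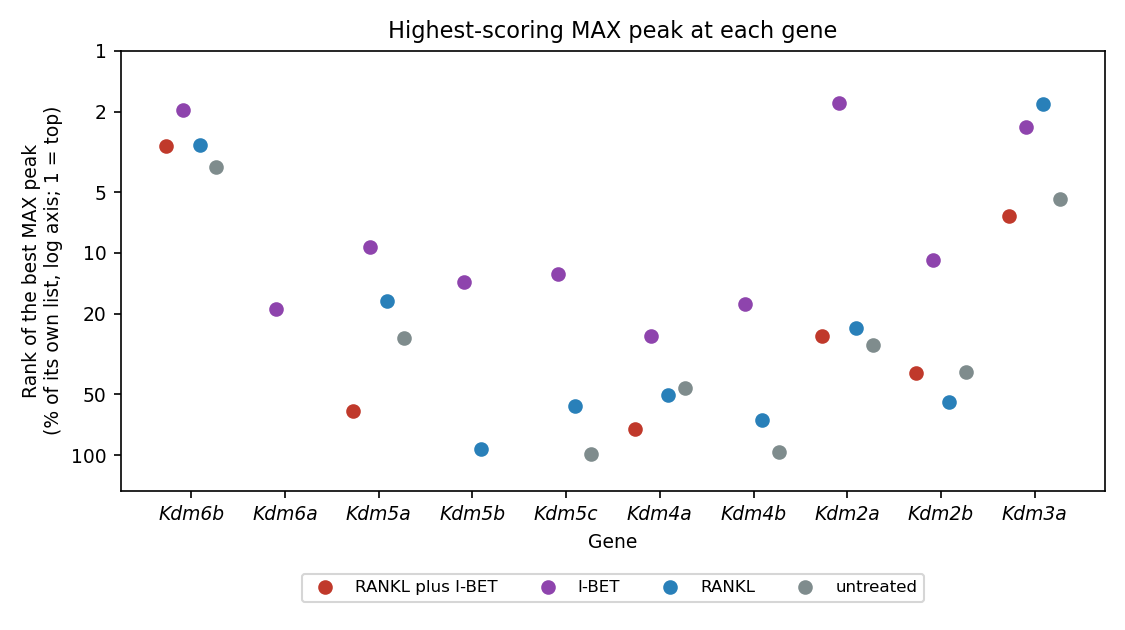
Rank of each gene's highest-scoring MAX peak as a percent of its own list (log axis, highest scores at the top), 1 point per treatment and no point where no MAX peak was listed. Kdm6b lies within the top 3.74% in every list, and Kdm5c lies at 98.3% in untreated cells.

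Other chromatin genes were counted from 7 lists. Of 66 entries, 38 had MAX with RANKL plus I-BET, 64 with I-BET, 54 with RANKL and 45 in untreated cells, and 33 had it in all 4. As shares these are 57.6%, 97.0%, 81.8% and 68.2%, against 30.0%, 65.0%, 42.3% and 37.4% of all genes. These counts use the extent plus 10 kb, and each rank below is that of the gene's best MAX peak anywhere in that window. Where these MAX peaks lay, and near which other genes, was not examined. The part of gene length was not tested for the 66 entries, nor were start windows or equal list lengths counted. Among 16 other JmjC genes the counts were 6, 14, 9 and 6 in the same order, or 37.5%, 87.5%, 56.2% and 37.5%, the last at the share of all genes. Their highest-ranked untreated MAX peaks were at Kdm4c, an H3K9 and H3K36 demethylase like Kdm4a, at rank 243 of 8839, Jmjd6 at 848 and Riox2 at 1431. Uty, the Y-linked relative of Kdm6a, was in no list, and Kdm5d, the Y-linked relative of Kdm5c, was in the RANKL list only. The H3K27 methyltransferase complex PRC2, whose mark the KDM6 enzymes remove, had MAX at 5, 10, 10 and 9 of its 10 genes, with Aebp2 at rank 158, the catalytic subunit Ezh2 at 1109 and Eed at 1390 in untreated cells. Ezh1, the other catalytic subunit, had MAX with I-BET and with RANKL only. The KMT2 and SET1 complexes, which lay down H3K4 methylation, had 12, 14, 13 and 11 of 14, with Rbbp5, a core subunit, at rank 8 of the 8839 untreated peaks, Kmt2a at 1028 and Kmt2c at 1270. Men1 (menin) had MAX with I-BET only. The H3K9 methyltransferases had 4, 6, 5 and 4 of 6, the H3K36 methyltransferases 4, 6, 6 and 6 of 6, the LSD-type demethylases and partners 3, 6, 5 and 3 of 6, and the KDM2B complex 4, 8, 6 and 6 of 8. In that complex Skp1 stood at rank 78 and Rybp at 1525 in untreated cells, while Pcgf1 and Bcorl1 had MAX with I-BET only. MYC was listed near 2 of the 66, Jmjd6 and Dpy30, in untreated cells only (3.03%, against 2.05% of all genes). The peak counted for Jmjd6 lay 8992 bp from it, within 1 kb of Srsf2 and Mfsd11, and that of Dpy30 lay in the gene.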

How the data were processed

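The data were 8 peak lists, 1 per antibody (MYC or MAX) and treatment, and the 4 input libraries were not used here. Per the submitters' processing notes, the tools included Bowtie2 2.3.4.1, FastQC and MACS2 2.1.1.20160309. The deposited lists give positions and a score, the authors' own value per peak, and each peak joins calls of 3 sets whose nature is not stated. Not given in the sources used here are thresholds, input use and depth. Replicates are mentioned in the labels' treatment protocol, but there is 1 library for each antibody and treatment. MYC and MAX lists carry different threshold tags, so treatments were compared within an antibody. Cell markers cannot be checked from binding.

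Gene extents and promoters came from RefSeq (GRCm38.p6). Peaks were assigned at an overlap of at least 1 bp with the extent plus 10 kb, with Python 3.11.15, numpy 2.4.6 and pandas 2.3.3, and figures were drawn with matplotlib 3.10.9. The assignment was tested on simulated data and against bedtools 2.31.1. Genes named are the 10 members, neighbours under or within 10 kb of their peaks, genes sharing Kdm6b's presence over the 8 lists (0 found), and, of each of 7 lists, those with MYC and up to 4 with the best untreated MAX rank or in the fewest MAX lists. The members and lists were chosen with earlier results of these data known. Alternatives were other windows, stricter scores, equal list lengths, overlap rules and leaving out narrow peaks.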

Additional observations from a re-analysis of the deposited data

Results flagged for a closer look

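In the full lists, I-BET went opposite ways at the demethylase genes with and without RANKL, and that difference was not tested, since each treatment has 1 list. The number of the 10 genes with a MAX peak changed by -3 for RANKL plus I-BET against RANKL (30.0% against 42.3% of all genes). It changed by 2 for I-BET against untreated cells (65.0% against 37.4%). In the higher-scoring 50% of each list the first of these differences was 0 (4 genes against 4). Over all genes the shares there were 17.6% with RANKL plus I-BET against 26.9% with RANKL. At equal list lengths the differences were -1 (6 against 7) and 1 (7 against 6). Over all genes those shares were 30.0% against 29.8%, and 33.6% against 30.0%. The number of MAX peaks at these genes changed by -6 for RANKL plus I-BET against RANKL, and by 31 for I-BET against untreated cells. The whole lists went the same ways, with 6307 peaks for RANKL plus I-BET against 10889 for RANKL, and 36785 for I-BET against 8839 for untreated cells.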

How the results depend on the processing

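Of 226 values recomputed under alternatives, 29 moved by over 1.5 times. Of the other 197, 113 were 0 against a reported 0 and say nothing about stability, which leaves 84. The difference in genes with MAX turned from 1 to -2 for RANKL minus untreated in the higher-scoring 50% of peaks. It was 0 with a 2.5 kb flank or without peaks near another gene. Over all genes, in the same order, the shares were 26.9% against 22.8%, 35.9% against 31.2% and 27.2% against 23.5%. No paired analysis was possible because each antibody and treatment has 1 list. Without the flank, MAX was gained at 4 genes for I-BET against untreated (29.7% of all genes) and at 2 for RANKL against untreated (7.71%). With a 2.5 kb flank it was gained at 0 for RANKL against untreated (7.73%). Within 1 kb of starts, MYC with RANKL plus I-BET was at 0 genes (0.0228% of all genes). Its gains were 0 against RANKL (0.0%) and 0 against I-BET (0.0183%). MAX was at 3 genes with RANKL plus I-BET (18.9%), 5 with RANKL (28.2%) and 4 in untreated cells (24.0%). It was lost at 7 for RANKL plus I-BET against I-BET (31.9%) and gained at 6 for I-BET against untreated (26.8%). In the higher-scoring 50% of peaks, RANKL plus I-BET had MAX at 4 genes (17.6% of all genes). RANKL had it at 4 (26.9%) and untreated cells at 6 (22.8%). RANKL plus I-BET against RANKL gained 1, Kdm2b (1.6%), and lost 1, Kdm5a (10.9%). I-BET against untreated gained 4 (33.8%). RANKL against untreated gained 0 (7.36%) and lost 2, Kdm4a and Kdm2b (3.26%). At equal list lengths, RANKL plus I-BET lost 1 against RANKL, Kdm5c (5.13% of all genes). Against I-BET it gained 1, Kdm4a (4.26%), and lost 2, Kdm5b and Kdm5c (7.87%). I-BET lost 1 against untreated, Kdm4a (4.38%). Without peaks under 100 bp, the Kdm6b MYC peak drops out. MYC was then at 0 genes with RANKL plus I-BET (0.0548% of all genes). It was gained at 0 against RANKL (0.0%) and 0 against I-BET (0.0457%). Leaving out peaks within 1 kb of another coding gene was an alternative chosen after seeing the data. MAX gains against untreated were then 1 for I-BET, Kdm6a (28.3% of all genes), and 0 for RANKL (6.33%). With a reciprocal overlap of 50%, 0 MYC peaks at the members overlapped MAX with RANKL plus I-BET. That outcome was fixed, since the only such MYC peak was 72 bp wide and the list's narrowest MAX peak was 209 bp. Under this rule, 2 I-BET peaks overlapped RANKL plus I-BET peaks, and 5 untreated peaks overlapped I-BET peaks. The causes were not tested beyond what each alternative itself leaves out. The search for CACGTG in peaks was not run, since no genome was used, and the MYC and MAX overlap without narrow MYC peaks gives no value. Depth is unknown, so list size and binding cannot be told apart.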
